A study of Homo sapiens with 2 samples.

Results

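The cells described here are the 143 induced neuroblastoma cells with the highest HRAS level, out of 1622 cells in 2 libraries. They were taken from the 666 cells of the HRASV12 induced library: 571 of these held at least 50000 counts, and the quartile of them with the most HRAS in CPM (counts scaled by the total of the cell) makes up the HRAS-high cells. The quartile with the least, also 143 cells, makes up the HRAS-low cells, and 142 and 143 cells lie between. The same split of 797 control cells of that depth, out of 956, gave 200 HRAS-high and 199 HRAS-low control cells.

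Single-cell RNA sequencing from the 3' end of transcripts had been carried out on SK-N-BE(2)-C-pIND-HRASV12, an established human neuroblastoma line, SK-N-BE(2)-C, that carries a doxycycline-inducible gene for HRASV12. Doxycycline at 100 ng/ml was added for 13 days to the cells of the induced library, and the control library is of cells of the same line left without it for that time. Both carry the inducible gene, and no source used here says whether the line is 1 clone. Each group is 1 library, so no difference has a replicate check and no test was run, and a difference between the libraries cannot be told apart from one between the cultures.

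HRAS is a small GTPase at the inner face of the plasma membrane that relays signals of receptor tyrosine kinases, when bound to GTP, to the RAF, MEK and ERK kinases and to PI3 kinase. The V12 form hydrolyses GTP poorly and so stays active, and strong RAS signalling is known both to drive growth and to halt the cell cycle. Neuroblastoma cells are known in an adrenergic state, with genes of catecholamine synthesis, and in a mesenchymal state with vimentin, S100 and matrix genes.

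HRAS (ENSG00000174775.17) chose the cells, so its levels are a description. From the lowest to the highest quartile of induced cells, pooled HRAS stood at 72.6, 125, 165 and 284 CPM, from 1126, 2549, 3878 and 5008 counts. In control cells the 4 quartiles stood at 52.8, 88.8, 119 and 166 CPM. In pooled level the third induced quartile was thus even with the highest control quartile, and only the HRAS-high induced quartile lay above all 4 control quartiles. Single cells overlapped: HRAS-high induced cells began at 195.7 CPM, and control cells reached 299.7 CPM. The pooled ratio of HRAS-high over HRAS-low cells was 3.91 in induced cells (exact 95% interval 3.66 to 4.17) and 3.14 in control cells (2.93 to 3.37). All intervals given here cover counting error only and leave out the spread between cells, cultures and libraries. Just inside the limit of the HRAS-high induced cells was a cell at 195.7 CPM and just outside it one at 195.2 CPM. At the limit of the HRAS-low induced cells, the cell just inside had 101.45 CPM and the cell just outside 101.84 CPM, so the limits cut through an unbroken range of cells.

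**Figure D1:**
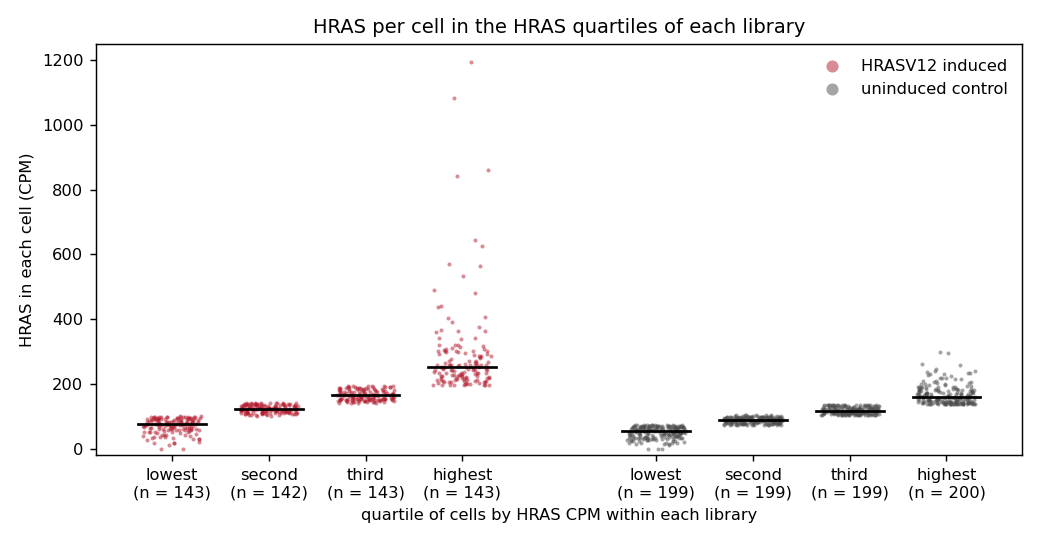
HRAS level of each cell (CPM, vertical axis) in the 4 quartiles of cells by HRAS, for the HRASV12 induced library (left) and the uninduced control library (right). Each point is 1 cell, spread sideways at random, and the black lines are medians. The HRAS-high induced cells have a tail up to 1193 CPM, while no control cell is above 299.7 CPM.

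The HRAS-high induced cells held a tail that control cells lacked. In the plot of HRAS per cell, 39 induced cells (6.83% of 571) lay above the highest control cell. With every cell thinned at random to 50000 counts, the variance of the HRAS count divided by its mean was 4.48 in induced cells and 1.44 in control cells, where counting error alone gives about 1. The means were 8.20 and 5.30 counts per cell. Part of any such split follows counting error, so the cells were also chosen on a random 50% of the counts of each cell and read in the rest. In the unused counts, HRAS-high over HRAS-low induced cells stood at 248 against 101 CPM, a ratio of 2.45 (2.26 to 2.66). In control cells it was 132 against 80.9 CPM, a ratio of 1.63 (1.49 to 1.78). Of the HRAS-high cells so chosen, 114 of 143 induced cells (79.7%) and 137 of 200 control cells (68.5%) were those of the full counts. Counts at the 3' end do not tell the transgene from the native gene, so these levels are no measure of the induced protein.

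The quartiles also differed in depth and in markers of RNA quality. The median cell held 121953 counts among HRAS-high and 101622 among HRAS-low induced cells, and 112434 and 83942 among control cells. The median mitochondrial percent of the counts was 10.3 in HRAS-high and 12.8 in HRAS-low induced cells. Cells under 5% numbered 28 (19.6%) of the HRAS-high and 4 (2.80%) of the HRAS-low induced cells, and 5 and 0 of the control cells. MALAT1, a nuclear RNA, had a median of 2214 CPM in HRAS-high and 3690 CPM in HRAS-low induced cells. Its 95th percentile ran the other way, at 23031 against 14217 CPM. In induced cells the medians of these measures did not follow the HRAS quartiles in order. The third induced quartile was the deepest, at a median of 146571 counts, with 30 cells under 5% and the lowest MALAT1 median, 901 CPM. In control cells the MALAT1 median was lower at every step, at 4193, 3538, 2440 and 2091 CPM from the lowest to the highest quartile. The median mitochondrial percent of control cells also fell at every step, from 13.4 to 12.4. Their median depth was highest in the third quartile, at 120640 counts. The part of depth, mitochondrial percent and MALAT1 in the results below was not tested, but values within limits on them are given beside those results. Of 8 neuroblastoma markers 7 reached 10 CPM in induced cells, among them PHOX2A, a homeobox factor of the sympathetic lineage, at 879 CPM in HRAS-high and 734 CPM in HRAS-low cells. Their sum was lower in HRAS-high cells, at 1896 against 2532 CPM, with 0 of 7 higher and 4 lower. All immune and erythroid markers in the table were under 10 CPM in both quartiles. Of 8 endothelial markers 3 were measured in induced cells, with a summed level of 53.0 CPM in HRAS-high cells, of which EGFL7 made up 43.4 CPM, and of 134 CPM in HRAS-low cells. CDH5, KDR and VWF, which define endothelium, had 2, 1 and 1 counts in HRAS-high and 127, 124 and 19 counts in HRAS-low induced cells. Among Schwann cell precursor markers only PMP22 was measured, at 49.4 CPM in HRAS-high and 34.4 CPM in HRAS-low induced cells. Epithelial markers summed to 47.2 against 48.2 CPM and fibroblast markers to 87.7 against 93.9 CPM. The part of cells of other kinds in the results was not tested, save where values without cells with endothelial counts are given.

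Across the transcriptome the HRAS split went with larger differences in induced than in control cells. A gene was taken as measured with at least 10 CPM in either quartile, and as different where it was at least 25% higher or at least 20% lower, the same fold either way. Of 9094 genes measured in induced cells, 1536 (16.9%) were higher and 1960 (21.6%) lower in HRAS-high cells. Of 8879 in control cells, 663 (7.47%) were higher and 1281 (14.4%) lower. At 1.5-fold, 539 (5.93%) were higher and 597 (6.56%) lower in induced cells, against 64 (0.721%) and 193 (2.17%) in control cells. The median log2 ratio of all measured genes was -0.04 in induced and -0.05 in control cells. The balance of higher and lower genes depended on the scaling: higher genes made up 43.9% of the different genes in induced cells and 34.1% in control cells with plain totals, against 78.0% and 81.6% with TMM factors and 77.7% and 88.5% with DESeq2 size factors. Those scalings put the median of all genes at 0.16 and 0.15 in induced cells, so a small list median near 0 has no fixed sign. Over the 4 induced quartiles, 1000 genes (11% of those measured) were higher at every step and 722 (7.94%) lower at every step, and in control cells 1418 (16%) and 1952 (22%).

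Of 8469 genes measured in both libraries, 336 were higher in the HRAS-high cells of both, which is 26.0% of the 1294 higher in induced cells and 54.6% of the 615 higher in control cells. Lower in both were 612, or 34.2% of the 1790 in induced and 51.9% of the 1180 in control cells. Only 37 genes were higher in induced and lower in control cells, and 20 the other way. Both libraries shared a dependence on base composition. HRAS itself has a GC-rich transcript, 65.8% over 1233 bases in the longest annotated form. Among induced cells the median log2 ratio ran from -0.13 in the 1 of 4 equal groups of genes lowest in GC, over -0.09 and -0.02, to 0.11 in the group highest in GC, and among control cells from -0.15 over -0.11 and -0.02 to 0.09. Short genes were higher in like manner, from 0.08 in the shortest to -0.15 in the longest of 4 groups in induced cells and from 0.06 to -0.14 in control cells. Taken relative to genes of like GC and length, S100A10 and DLK1, both described below, kept log2 ratios of 1.01 and -2.59 in induced cells.

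**Figure D2:**
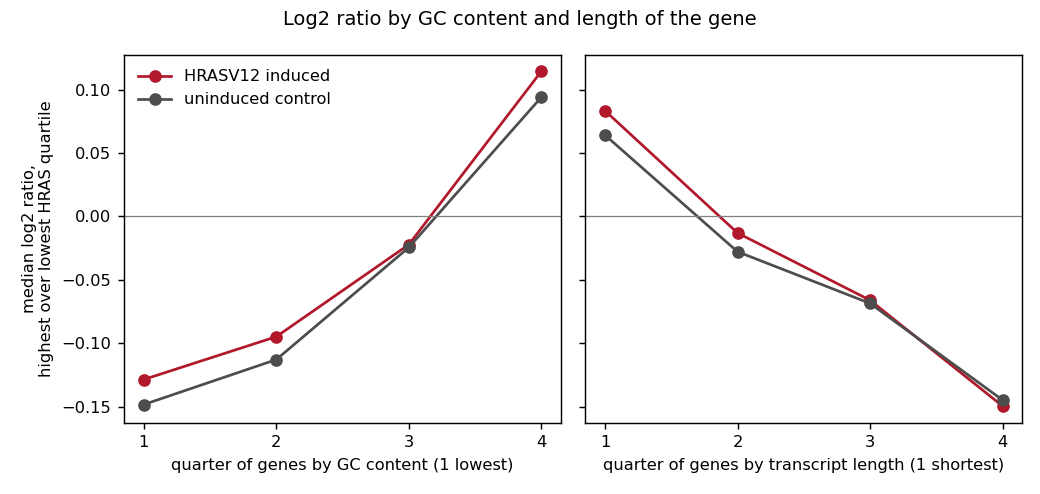
Median log2 ratio of HRAS-high over HRAS-low cells (vertical axis) for measured genes in 4 equal groups by GC content (left) and by length of the longest transcript (right), in induced and control cells. Both libraries run the same way, from -0.13 to 0.11 in induced and from -0.15 to 0.09 in control cells along GC content.

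Of genes of the cell surface and cytoskeleton that mark the mesenchymal state, 13 of 30 measured were higher and 5 lower in HRAS-high induced cells, and of matrix genes 1 of 19 was higher and 13 lower. Among all genes measured, 16.9% were higher and 21.6% lower in induced cells, and 7.47% and 14.4% in control cells. Counts of list members here and below are to be read beside these shares. Summed over 33 surface and cytoskeletal genes, induced cells stood at 14060, 16951, 19962 and 21841 CPM from the lowest to the highest HRAS quartile, an increase at every step. Control cells stood at 6569, 6367, 6665 and 6710 CPM. The median log2 ratio of the measured members in induced cells was 0.19 (95% interval of the median -0.06 to 0.42), beside -0.04 for all genes, and the other 12 members were not different. In control cells 1 of 24 was higher and 4 lower, with a median of -0.13. The median in induced cells was 0.65 after cells below the control 5th percentile of mitochondrial percent or MALAT1 were left out, and 0.03 in cells low in cell cycle genes, the ends of its range over 21 alternatives.

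S100A10, the small calcium-binding-family partner of annexin A2 at the plasma membrane, led the list. From the lowest to the highest induced quartile it stood at 1199, 1863, 2380 and 2753 CPM, a ratio of 2.30 for HRAS-high over HRAS-low cells (2.26 to 2.34). In control cells it stood at 259.5, 269, 285 and 303 CPM, so in pooled level every induced quartile lay far above every control quartile. At equal depth, 90.2% of the HRAS-high induced cells lay above the median HRAS-low cell. Without the cells low in mitochondrial percent or MALAT1 the log2 ratio was 1.51, against 1.20 with them. TMSB10, a thymosin that binds actin monomers, followed with 2146, 2985, 4054 and 4556 CPM in induced cells, a ratio of 2.12 (2.10 to 2.15). Control cells had 868, 857, 1057 and 1163 CPM, a ratio of 1.34 (1.31 to 1.37). The lowest members in induced cells were ANXA1 and ITGA5. ANXA1, a membrane-binding annexin, stood at 29.3, 13.6, 27.3 and 6.63 CPM from the lowest to the highest induced quartile, with no steady order. A single cell held 33.0% of its counts in HRAS-low cells, and its log2 ratio of -1.99 was -0.39 with every cell thinned to 50000 counts. ITGA5, the fibronectin receptor subunit, stood at 3.23 CPM in HRAS-high and 11.4 CPM in HRAS-low cells.

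Vimentin, VIM, named after its values were seen, shows how the share of cells and the pooled level can part. Pooled VIM was 1360, 1404, 1414 and 1814 CPM over the induced quartiles, a ratio of 1.33 (1.31 to 1.36) for the ends. In shares of cells at equal depth the steps were wider: 37.8% (exact interval 29.8 to 46.2), 47.2%, 63.6% and 72.0% (63.9 to 79.2) of cells lay above the 95th percentile of all control cells, 904 CPM. For S100A10 the shares above the control limit of 1044 CPM were 38.5%, 63.4%, 81.1% and 81.8%. For the summed list they were 44.1%, 62.0%, 83.2% and 88.1%. In each of these 3 measures the control quartiles lay between 3.02% and 7.54%. Thus 17 of the 143 HRAS-high induced cells were not above the control limit for the summed list, and 63 of the 143 HRAS-low cells were above it.

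Matrix genes went the other way when counts were pooled. Their median in induced cells was -0.80 (-1.70 to -0.06), and the summed level was 822 CPM in HRAS-high and 1325 CPM in HRAS-low cells. In control cells the sums were 337 and 414 CPM. The median cell did not show this order: it had 560 CPM in HRAS-high and 440 CPM in HRAS-low induced cells, and 65.0% of the HRAS-high cells lay above the median HRAS-low cell. COL4A1 and COL4A2, chains of basement membrane collagen, were lowest, the first at 0.510 CPM in HRAS-high and 29.01 CPM in HRAS-low cells, the second at 1.81 against 26.8 CPM. Their differences rested on few cells. Cells with at least 3 counts over 7 endothelial markers numbered 9 (6.29%) among HRAS-high, 23 (16.1%) among HRAS-low and 31 (21.7%) among induced cells of the third quartile. Without such cells, a setting chosen after seeing the data, the log2 ratios of COL4A1 and COL4A2 were 0.14 and 0.023, against -4.31 and -3.31 with them, and the matrix median was -0.37. Among mesenchymal transcription factors 1 of 15 was higher and 4 were lower (median -0.18). SOX9 stood at 19.2 against 8.96 CPM, and WWTR1, a coactivator of YAP target genes, at 6.57 against 14.9 CPM. With the 3 mesenchymal lists joined, 15 of 64 genes were higher and 22 lower, beside 16.9% and 21.6% of all genes. The median was -0.10 (-0.30 to 0.11). The summed level was 23601 CPM in HRAS-high and 16469 CPM in HRAS-low induced cells, so the count of genes and the sum had opposite signs.

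**Figure D3:**
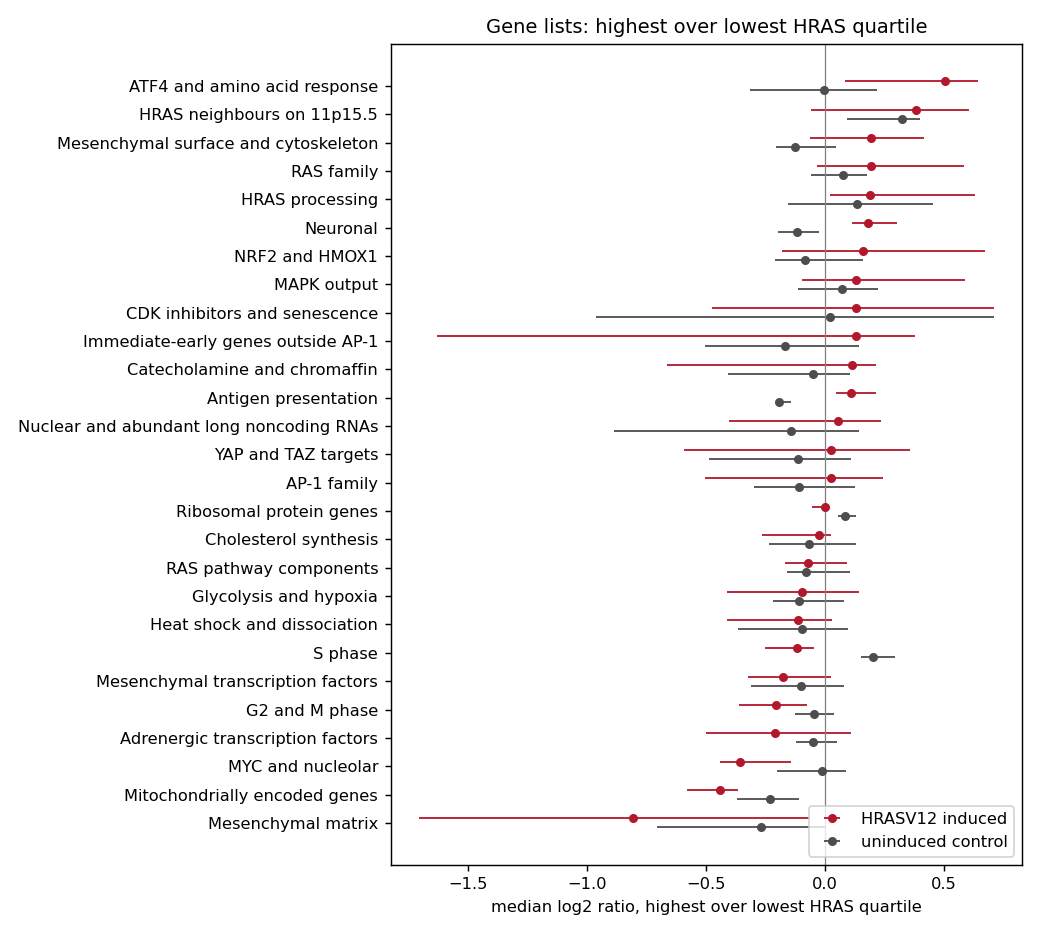
Median log2 ratio of HRAS-high over HRAS-low cells (horizontal axis) for each gene list, in induced cells (red, upper point of each pair) and control cells (grey, lower point). Points are medians over measured members and bars their 95% order-statistic intervals, or the whole range for lists of under 6 members. The ATF4 list has the highest induced median, 0.50, and the matrix list the lowest, -0.80.

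Adrenergic and neuroendocrine genes were split, with a few abundant ones much lower in HRAS-high induced cells. DLK1, a membrane protein with EGF repeats that chromaffin cells express, stood at 699, 609, 400 and 120 CPM from the lowest to the highest induced quartile, against 1297, 1329, 1297 and 1445 CPM in control cells. The ratio of HRAS-high over HRAS-low cells was 0.171 (0.163 to 0.179) in induced and 1.11 (1.10 to 1.13) in control cells. At equal depth, the shares of cells below the control 5th percentile of 80 CPM were 46.9%, 43.7%, 52.4% and 72.0% over the induced quartiles. The HRAS-high quartile thus stood apart from 3 quartiles that were much alike in this share. In 21 alternative analyses the log2 ratio of DLK1 lay between -2.69 and -1.999.

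CHGA, chromogranin A of the secretory granule, stood at 642, 539, 346 and 235 CPM over the induced quartiles, a ratio of 0.365 (0.352 to 0.379). In control cells it stood at 1082, 1084, 1025 and 816 CPM, a ratio of 0.754 (0.739 to 0.769), so it was lower in HRAS-high cells of both libraries and by more in induced cells. DBH, which makes noradrenaline from dopamine, stood at 36.5 CPM in HRAS-high and 72.4 CPM in HRAS-low induced cells, and at 111 against 84.6 CPM in control cells. Of 21 adrenergic transcription factors 1 was higher and 8 lower in induced cells (median -0.21), with TBX2 the highest, at 168 against 130 CPM, and DACH1 the lowest, at 4.53 against 15.3 CPM. The median cell had 3140 CPM of their sum in HRAS-high and 3960 CPM in HRAS-low induced cells, while the share of cells below the control 5th percentile was alike at both ends, at 20.3%, 7.04%, 10.5% and 18.9% from the lowest to the highest induced quartile. Of 18 catecholamine and chromaffin genes 3 were higher and 7 lower, although the median was 0.11. NPY, a cotransmitter of sympathetic neurons, stood at 1440 against 1066 CPM and PCSK1N, an inhibitor of prohormone convertase, had 1338 CPM in HRAS-high and 736 CPM in HRAS-low cells. With both adrenergic lists joined, 4 of 39 genes were higher and 15 lower, with a median of -0.11 (-0.39 to 0.13).

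More neuronal genes were higher than lower in induced cells, 7 of 26 against 1, with a median of 0.18 (0.11 to 0.30). In control cells 1 of 23 was higher and 3 lower, with a median of -0.12. Of all genes 16.9% were higher and 21.6% lower in induced cells, and 7.47% and 14.4% in control cells. NEFL, the light chain of neurofilaments, stood at 520, 731, 742 and 900 CPM over the induced quartiles and between 359.6 and 368 CPM in all 4 control quartiles. SNCG, a synuclein, stood at 62.8 against 29.7 CPM. STMN1, a microtubule-destabilizing protein that dividing cells hold in quantity, was the lowest member, at 998 CPM in HRAS-high and 1460.1 CPM in HRAS-low induced cells.

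**Figure D4:**
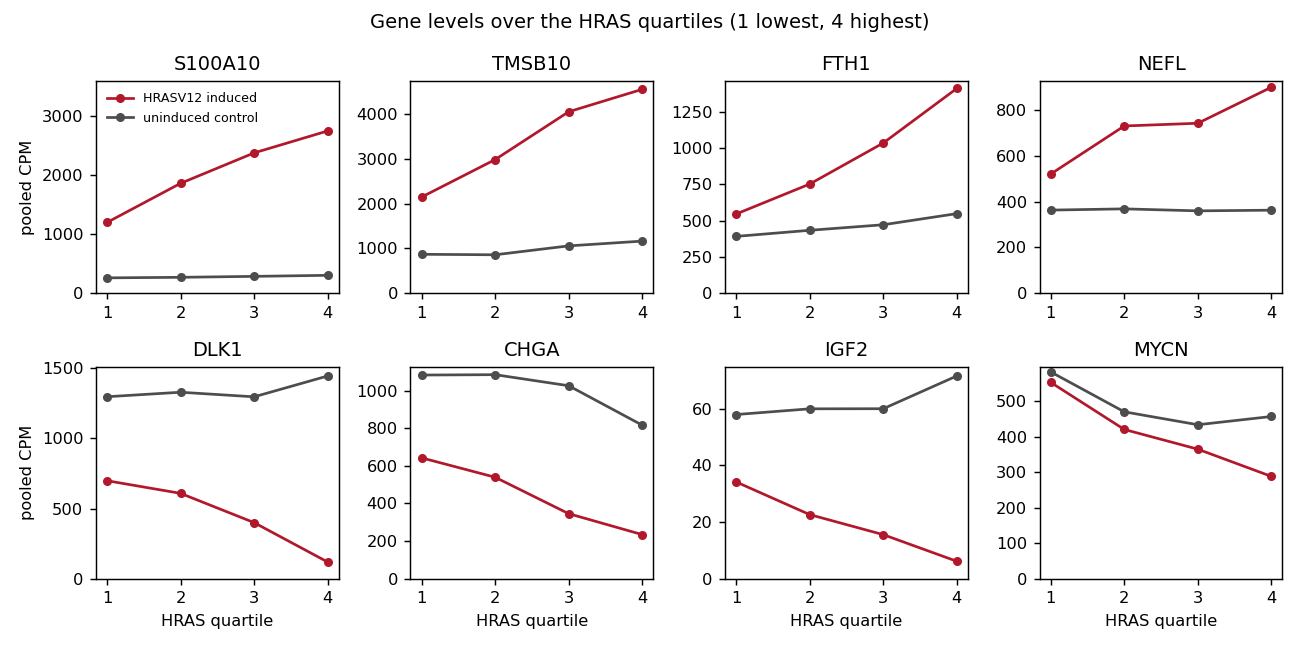
Pooled level (CPM, vertical axis) of 8 genes over the HRAS quartiles (1 lowest, 4 highest) in induced and control cells. In induced cells S100A10, TMSB10, FTH1 and NEFL are higher and DLK1, CHGA, IGF2 and MYCN lower at each step, while NEFL lies between 359.6 and 368 CPM in control cells.

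Since HRAS chose the cells, the RAS family is described here by its other members. The list holds 17 genes besides HRAS in the table, of which 11 were measured, and 5 were higher and 0 lower in HRAS-high induced cells (median 0.19). Of all genes measured in induced cells, 16.9% were higher and 21.6% lower. NRAS, a close relative of HRAS, stood at 67.7 CPM in HRAS-high and 49.4 CPM in HRAS-low induced cells, a ratio of 1.37 (1.251 to 1.503), and at 46.5 against 45.9 CPM in control cells. RHEB, the activator of mTORC1, stood at 446 against 344 CPM, RRAS at 25.1 against 16.3 CPM, RALB at 17.8 against 13.2 CPM and DIRAS1 at 16.9 against 10.96 CPM. RAP1A, RAP1B, RAP2A, RALA and RIT1 were within that range, and RAP2B, RRAS2, MRAS, ERAS, DIRAS2 and DIRAS3 were under 10 CPM in both quartiles. Genes that lipidate and transport HRAS had 1 of 7 higher, PDE6D, the prenyl-binding chaperone, at 66.8 against 42.8 CPM. Components of the RAS pathway had 3 of 23 higher and 3 lower (median -0.07), neither above the share of all genes. AKT1, the kinase downstream of PI3 kinase, stood at 55.4 against 34.6 CPM and PTPN11, the phosphatase SHP2, at 44.2 against 60.0 CPM.

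Of 31 neighbours of HRAS on its chromosome, 9 of 16 measured were higher and 1 lower in induced cells (median 0.38, -0.06 to 0.61), where 16.9% of all genes were higher. In control cells 8 of 15 were higher and 0 lower (median 0.32, 0.09 to 0.40), where 7.47% of all genes were higher. CD151, a tetraspanin, stood at 142 against 83.2 CPM in induced cells, and SIGIRR, a receptor that damps interleukin signalling, at 23.2 against 7.74 CPM. These neighbours are GC-rich, with a median of 61.6% against 47.1% for all measured genes. Over 21 alternatives their median log2 ratio lay between 0.079 and 0.566 in induced cells and between 0.164 and 0.525 in control cells. The comparison with genes of like GC and length was among these alternatives. The part of GC content as a cause was not tested.

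Targets of MAPK signalling had 9 of 22 measured members higher and 3 lower in HRAS-high induced cells, beside 16.9% and 21.6% of all genes. The sum of these targets over the induced quartiles was 1872, 1839, 1832 and 2210 CPM, so that the HRAS-high cells stood above 3 level quartiles. In control cells the sums were 1174, 1132, 1131 and 1083 CPM. Their median in induced cells was 0.13 (-0.10 to 0.59), beside -0.04 for all genes, and 0.42 without cells with endothelial counts. In the share of cells above the control 95th percentile the order was 42.7%, 44.4%, 44.8% and 58.7% (50.2 to 66.9). ETV4, an ETS factor induced by ERK, stood at 42.7 CPM in HRAS-high and 23.4 CPM in HRAS-low cells, and UPP1, uridine phosphorylase, at 115 against 64.0 CPM. Both were also higher in HRAS-high control cells, at 32.7 against 22.3 CPM and 51.8 against 32.6 CPM. The urokinase receptor gene PLAUR had 15.1 CPM in HRAS-high and 30.9 CPM in HRAS-low cells, and EMP1, a membrane protein, had 0.963 against 13.9 CPM in induced cells. The AP-1 family had 0 of 11 higher and 2 lower (median 0.02), with FOS at 33.2 against 52.1 CPM and FOSL2 at 18.9 against 27.3 CPM. Among other immediate-early genes 3 of 10 were higher and 3 lower, ARC at 53.5 against 34.7 CPM and BTG2, an antiproliferative gene, at 5.21 against 18.2 CPM.

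Genes of the ATF4 response to amino acid shortage and stress were the list most often higher. In induced cells 13 of 20 were higher and 0 lower, with a median of 0.50 (0.08 to 0.64), and in control cells 2 of 19 and 4, with a median of -0.01. Their sum was 1546, 1605, 1747 and 2041 CPM over the induced quartiles. TRIB3, a pseudokinase induced by ATF4, stood at 26.7, 38.4, 53.8 and 90.6 CPM, a ratio of 3.40 (3.05 to 3.79), against 14.2 CPM in HRAS-high and 12.8 CPM in HRAS-low control cells. A single cell held 27.7% of the TRIB3 counts of the HRAS-high cells, and without the richest cell of each quartile its log2 ratio was 1.43, against 1.73. Without the 10 cells with the highest HRAS it was 1.17, and the list's median 0.33. The median was 0.35 without the cells low in mitochondrial percent or MALAT1. ATF5, a relative of ATF4, stood at 35.01 against 18.2 CPM. HERPUD1, of the degradation of endoplasmic reticulum proteins, was the lowest member, at 105 CPM in HRAS-high and 129 CPM in HRAS-low cells, and PHGDH, of serine synthesis, the next at 145 against 159 CPM. The share of cells above the control 95th percentile was 13.3%, 12.7%, 19.6% and 30.8% (23.3 to 39.0) over the induced quartiles, so most HRAS-high cells were within the control range.

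FTH1, the ferritin heavy chain that stores iron, was among the 12 highest genes and the most abundant of them. It stood at 545, 752, 1035 and 1411 CPM over the induced quartiles, a ratio of 2.59 (2.52 to 2.65), and at 391, 433, 471 and 548 CPM over the control quartiles, a ratio of 1.40 (1.36 to 1.44). Of the HRAS-high induced cells 92.3% lay above the median HRAS-low cell. SELENOW, a selenoprotein, stood at 455 CPM in HRAS-high and 172 CPM in HRAS-low induced cells and at 188 against 144 CPM in control cells. ENHO, ARHGDIG, SHISA4, HTN1 and HTN3, saliva histatins, had log2 ratios of 1.35 to 1.64 in induced cells and of -0.03 to 0.75 in control cells. HTN1 and HTN3 are close copies of each other, so the split of reads between them is uncertain.

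Of the other 4 highest genes, DEUP1, TSPAN19 and HMOX1 had most of their counts from single cells. DEUP1 had 99.4% of its counts in HRAS-high cells from 1 cell, TSPAN19 84.3%, HMOX1 81.2% and C12orf75 38.2%. Without the richest cell of each quartile, a setting chosen after seeing the data, the log2 ratio was -0.55 for DEUP1, 0.34 for TSPAN19, 1.34 for HMOX1, the haem oxygenase that NRF2 induces, and 2.00 for C12orf75. Such genes were few: of the 1536 higher genes, 12 took over 25% of their HRAS-high counts from 1 cell, and 6 over 50%. Among the 12 lowest, CD93, COL4A1, COL4A2, EMCN and APLNR are known from blood vessel endothelium, and TFPI2, HGF, ZFP36L1, ANXA1, ACP5, IGF2 and DLK1 completed them. Without cells with endothelial counts the log2 ratio of CD93 was -0.39, against -4.57 with them. IGF2, a growth factor, stood at 34.2, 22.6, 15.6 and 6.17 CPM over the induced quartiles, against 71.6 CPM in HRAS-high and 57.9 CPM in HRAS-low control cells.

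**Figure D5:**
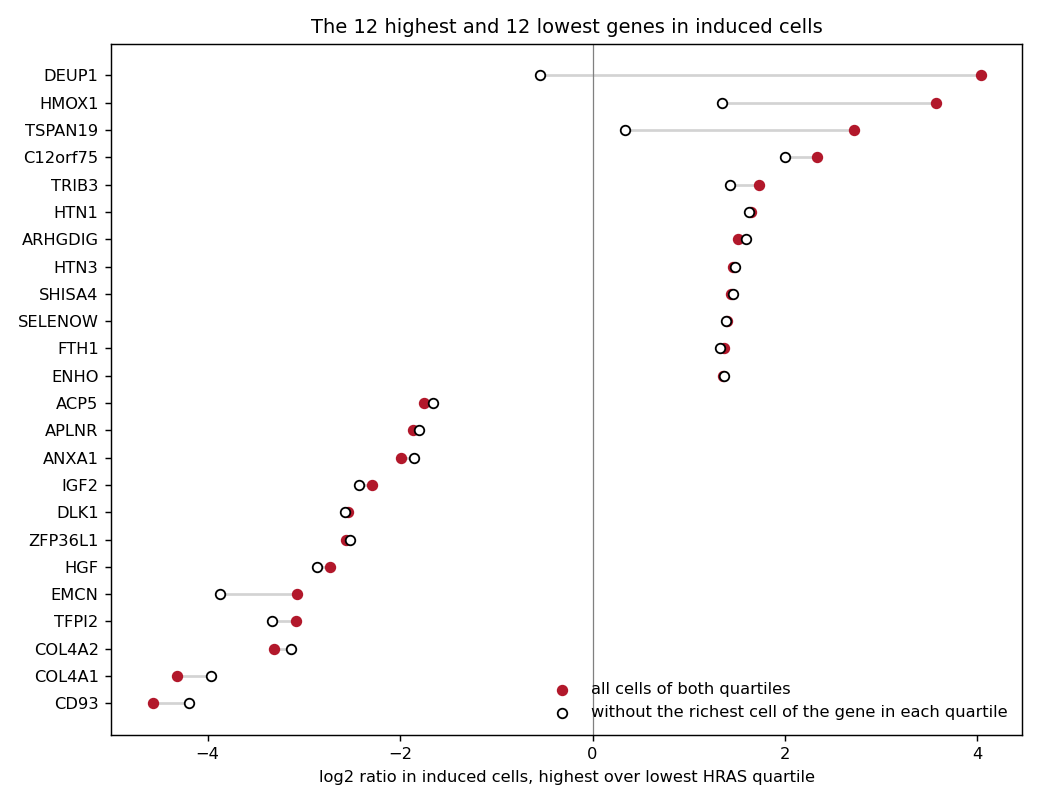
Log2 ratio of HRAS-high over HRAS-low induced cells (horizontal axis) for the 12 highest and 12 lowest genes of at least 25 CPM. Filled points use all cells and open points leave out the richest cell of each gene in each quartile: DEUP1 moves from 4.04 to -0.55, while FTH1 and DLK1 stay near 1.37 and -2.54.

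Of MYC and nucleolar genes and of G2 and M phase genes, more were lower than higher in the pooled counts of HRAS-high induced cells. Of 21 MYC and nucleolar genes 0 were higher and 12 lower in induced cells (median -0.36, -0.44 to -0.14), with sums of 7183, 6761, 6362 and 5599 CPM over the quartiles. In control cells 1 of 20 was higher and 2 lower (median -0.01). MYCN, the amplified oncogene of this line, stood at 553, 420, 365 and 288 CPM over the induced quartiles, a ratio of 0.521 (0.503 to 0.540), and at 582, 470, 433 and 457 CPM over the control quartiles, a ratio of 0.784 (0.764 to 0.805). Of 53 G2 and M phase genes 3 were higher and 20 lower (median -0.20, -0.36 to -0.08), LBR, the lamin B receptor, at 52.8 against 103 CPM and HMGB2, a chromatin protein, at 125 against 234 CPM. The cells did not show this order in their sum: the median cell had 2660 CPM in HRAS-high and 2560 CPM in HRAS-low cells, and 28.7% of HRAS-high and 35.7% of HRAS-low cells lay below the control 5th percentile. Of 37 S phase genes 2 were higher and 10 lower in induced cells (median -0.12), with PCNA at 51.0 against 78.1 CPM. The share lower is near the 21.6% of all genes, and the median cell had 780 CPM in HRAS-high and 720 CPM in HRAS-low cells. In control cells 10 of 39 were higher and 1 lower (median 0.20), with PCNA at 138 against 120 CPM. The S phase median in induced cells was 0.061 with TMM and 0.058 with DESeq2 scaling, below the 0.16 and 0.15 of all genes under them. CDK inhibitors and senescence genes were mixed in induced cells, 4 of 13 higher and 3 lower, beside 16.9% and 21.6% of all genes. CDKN2D, an inhibitor of CDK4 and CDK6, stood at 62.8 against 32.2 CPM in induced and 36.0 against 22.7 CPM in control cells.

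The other lists are given by their medians in induced cells, beside -0.04 for all genes. YAP and TAZ targets had a median of 0.03, glycolysis and hypoxia genes -0.10, cholesterol synthesis genes -0.02, heat shock and dissociation genes -0.11, long noncoding RNAs 0.05 and ribosomal protein genes 0.00. NRF2 and HMOX1 genes, of the response to oxidants, had 5 of 15 higher and 3 lower, with a median of 0.16 (-0.18 to 0.67). Their sum was 6146, 6303, 7578 and 7568 CPM from the lowest to the highest induced quartile, so the third and highest quartiles were even. In control cells it was 4974 CPM in HRAS-high and 4259 CPM in HRAS-low cells. FTH1, at 1411 CPM in HRAS-high and 545 CPM in HRAS-low induced cells, is part of this sum. So is HMOX1, with 81.2% of its HRAS-high induced counts from 1 cell. Of the HRAS-high induced cells 74.8% lay above the median HRAS-low cell in the summed list. Within the glycolysis list 1 of 15 measured genes was higher and 5 were lower in induced cells. The sum of the list was 8402 CPM in HRAS-high and 8035 CPM in HRAS-low induced cells. ENO2 stood at 221 against 157 CPM and GAPDH at 4800 against 4004 CPM. SLC2A1, the glucose transporter, stood at 16.9 CPM in HRAS-high and 38.2 CPM in HRAS-low induced cells, against 42.3 and 45.7 CPM in control cells. Mitochondrially encoded genes had 0 of 13 higher and 12 lower in induced cells (median -0.44) and 0 and 5 in control cells (median -0.23), beside the mitochondrial percent given above.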

How the data were processed

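Single-cell counts of 36027 genes in 1622 cells were used as the authors deposited them, in whole numbers. The counting tools were kallisto and bustools, per the submitters' processing notes. No source used here states their versions, the genome build or the annotation, so no coordinates are printed. The deposited cell annotation gives the library, the total count and the mitochondrial percent of each cell as the authors computed it, per the file headers, and calls each of the 1622 a singlet, by a method no source used here states. The libraries shared 0 barcodes, and column sums differed from annotated totals by at most 192 counts. Symbols come from the authors' table, where 376 rows repeat one. Counting reads that fit several genes can lose or split those of near-identical copies.

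Cells of at least 50000 annotated counts were ranked by HRAS CPM within each library and divided in 4. Depths per quartile are in the report. Counts were pooled per quartile and scaled to CPM. Log2 ratios have a pseudocount of 1 CPM, which understates differences of low genes, and plain ratios none. Genes of at least 10 CPM in either quartile were measured, and HRAS was left out. No test was run, since cells are not replicates. Intervals are exact 95% intervals: conditional binomial for ratios, Clopper-Pearson for shares and order statistics for medians. Values per cell come from cells thinned at random to 50000 counts, where 1 count is 20 CPM. Shares past a control limit use the 5th or 95th percentile of control cells.

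The members, gene lists and rules were chosen with earlier results of these data known, so no list is independent evidence. Named are HRAS and the RAS family, the 12 highest and 12 lowest genes of at least 25 CPM, the 6 highest and 6 lowest by induced minus control ratio, and the 2 highest and 2 lowest of each list; VIM and, in part, the selection of examples printed came after their values were seen. A few genes that fall under these rules are left out of the text. Neighbours of HRAS were taken from RefSeq (GRCh38.p14), and GC content and length from the longest transcripts of GENCODE 29, matched by gene ID for 99.7% of measured genes. Alternatives were other cuts, depth matching, thinning, unused counts, TMM (edgeR 4.0.16) and DESeq2 (1.42.0) factors, used as scaling only, other totals, means of per-cell CPM, limits on mitochondrial percent and MALAT1 or on cell cycle genes, pseudocounts of 0.1 and 5 CPM and other filters. Leaving out the richest cell of each gene, the 10 cells with the most HRAS or cells with endothelial counts, and comparing genes of like GC and length, were added after seeing the data. The calculation was tested on simulated counts. Python 3.11.15, numpy 2.4.6, scipy 1.17.1 and pandas 2.3.3 were used.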

Additional observations from a re-analysis of the deposited data

Results flagged for a closer look

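Several results had opposite signs in induced and control cells; the difference between the libraries was not tested, since each is 1 library. The median log2 ratio of HRAS-high over HRAS-low cells was 0.11 in induced and -0.20 in control cells for antigen presentation genes, over 4 measured members, 0.18 and -0.12 for neuronal genes, and -0.12 and 0.20 for S phase genes. CRH, a stress neuropeptide, had 0.94 in induced and -1.09 in control cells, with 482 CPM in HRAS-high and 251 CPM in HRAS-low induced cells. In HRAS-low control cells 1 cell held 36.5% of the CRH counts, and at equal depth the median control cell of both quartiles had 0 CPM. MGP, matrix Gla protein, had 0.38 and -1.83, and 66.8% of its HRAS-high induced counts came from 1 cell. PMP22, a myelin protein that other cells also express, had 0.51 and -0.69. DBH had -0.97 in induced and 0.39 in control cells, and MT2A, a metallothionein, -1.63 and 0.65. A single cell held 46.1% of the MT2A counts of HRAS-low induced cells, and at equal depth the median cell had 20 CPM, a single count, in HRAS-high and 0 CPM in HRAS-low induced cells.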

How the results depend on the processing

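No paired analysis was possible because each group is 1 library. No replicate was left out, since each group has 1.

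HRAS chose the cells, so an HRAS ratio above 1 is built into every alternative except the reading in unused counts. In induced cells (3.91) it was 3.08 with 3 equal groups, 2.23 against all other cells, 3.43 within depth bins, 5.14 with thinning, 3.46 at 80000 counts or more, 4.24 at any depth, 2.45 in unused counts, 4.46 with TMM, 4.45 with DESeq2 factors, 4.17 without cells low in mitochondrial percent or MALAT1, 4.66 in cells low in cell cycle genes and 3.55 without the 10 cells highest in HRAS. In control cells (3.14) it was 2.63 with 3 equal groups, 1.86 against all other cells, 2.88 within depth bins, 4.32 with thinning, 2.78 at 80000 counts or more, 3.38 at any depth, 1.63 in unused counts, 3.52 with TMM and 3.63 with DESeq2 factors.

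Counts of different genes in induced cells (1536 higher, 1960 lower) were 801 and 441 against all other cells, 2933 and 827 with TMM, 2908 and 833 with DESeq2 factors, 2821 and 7414 with no filter, 660 and 521 at 50 CPM, and 539 and 597 at 1.5-fold. In control cells (663 and 1281) they were 139 and 359 against all other cells, 1863 and 420 with TMM, 2334 and 303 with DESeq2 factors, 1105 and 1941 in cells low in cell cycle genes, 1328 and 5389 with no filter, 341 and 307 at 50 CPM, and 64 and 193 at 1.5-fold. The lower count alone moved to 816 within depth bins, 705 with thinning, 804 in unused counts, 821 without cells low in mitochondrial percent or MALAT1, and 797 relative to genes of like GC and length.

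The S phase median in induced cells (-0.12) was -0.35 with 3 equal groups, -0.25 within depth bins, -0.41 with thinning, -0.26 at 80000 counts or more, -0.41 in unused counts, 0.061 with TMM, 0.058 with DESeq2 factors, -0.37 without cells low in mitochondrial percent or MALAT1, -0.0015 in cells low in cell cycle genes and -0.045 relative to genes of like GC and length. The G2 and M phase median (-0.20) was -0.46 with thinning, -0.022 with TMM, -0.025 with DESeq2 factors, -0.57 without cells low in mitochondrial percent or MALAT1, and -0.0081 in cells low in cell cycle genes, a limit set on these genes. The median of all mesenchymal genes (-0.10) was 0.16 against all other cells, -0.49 in cells low in cell cycle genes and 0.17 at 50 CPM. Those of MAPK output (0.13, from 0.07 to 0.43) and adrenergic genes (-0.11, from -0.21 to 0.08) moved by less than their intervals.

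Of single genes, MGP was -0.55 within depth bins and -0.49 without its richest cell, MT2A 0.051 with thinning, DEUP1 -0.76 without cells low in mitochondrial percent or MALAT1, -0.55 without its richest cell and -0.64 without the 10 cells highest in HRAS. APLNR was 0.31, COL4A1 0.14 and COL4A2 0.023 without cells with endothelial counts. The cause of these changes was not tested.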

Other observations

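A few genes not named above are given here. ACTA2, smooth muscle actin, stood at 71.5 CPM in HRAS-high and 74.7 CPM in HRAS-low induced cells and at 1.28 against 12.5 CPM in control cells. A single cell held 28.6% of its counts in HRAS-low induced cells, and its log2 ratio in induced cells ran from -0.44 to 1.03 over 21 alternatives, so it has no fixed direction. KRT19, a keratin, stood at 22.0 CPM in HRAS-high and 9.28 CPM in HRAS-low induced cells, and at 12.9 against 13.6 CPM in control cells. It was the 1 higher of 3 epithelial markers measured in induced cells, and 2 were lower. These were KRT18, at 17.3 against 23.3 CPM, and KRT8, at 5.55 against 10.1 CPM. KCNQ1OT1, a long noncoding RNA kept in the nucleus, stood at 97.2 against 217 CPM in induced and 176 against 326 CPM in control cells, so it was lower in the HRAS-high cells of both libraries, as was MALAT1 in its median.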
